A study of Homo sapiens with 8 samples.

Results

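The Polo-like kinases PLK1, PLK2, PLK3 and PLK4 were followed in 8 RNA sequencing libraries of the human glioblastoma cell line LN229. The members were taken by their symbols, 4 of the 26364 genes of the count table, and all 4 were among the 14201 genes with enough counts to be tested. The family was selected on its fold changes upon temozolomide and between the clones in these same libraries, so the values of the members and their calls are a description and support nothing. A p-value is printed for a member only where another fit changed its side of the threshold. No fold threshold was used.

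All cells carried a stably integrated pcDNA3.1 plasmid and were grown under G418 selection. Surv-GFP cells (clone D6) express Survivin, the product of BIRC5, fused to eGFP with an intact nuclear export signal (NES), and this protein is located mainly in the cytoplasm. SurvNESmut-GFP cells (clone L2) express the fusion with leucine replaced by alanine at residues 96 and 98 of the signal, which traps it in the nucleus. Cells of each clone were either not treated or kept for 48 h in 50 µM temozolomide (TMZ, a DNA-methylating drug used against glioblastoma). This gave 4 groups of 2 libraries, a and b. Each form of Survivin was represented by 1 clone, so that the form and the clone cannot be told apart. TMZ was dissolved in DMSO, and whether the untreated cells received the solvent is not stated in the sources used here. Independent biological replicates and technical duplicates are both described for these clones, and which of them the letters mark is not stated, so that every SD and SE below measures the spread between lettered libraries, which may be technical.

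Polo-like kinases are serine/threonine kinases that share a kinase domain and a C-terminal polo-box region, which binds other proteins. PLK1 accumulates in G2 and mitosis, where it is switched on by Aurora A together with its cofactor BORA and drives mitotic entry, centrosome maturation, spindle assembly and cytokinesis. PLK4 starts the formation of new centrioles. PLK2 and PLK3 are known as early-response and stress-responsive kinases, PLK2 is a described target of p53, and PLK3 acts in responses to DNA damage and hypoxia. The fifth member, PLK5, lacks much of the kinase domain in humans and is best known from brain.

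The libraries held 15826923 to 18861603 reads on genes, and those of the same group correlated with r of at least 0.9958. Of 7 genes used as markers of a glioma line, 6 were over 1 CPM (read counts scaled to a common library size, CPM, with TMM normalization) in all 8 libraries. The remaining one, GFAP, stood at 0 to 0.921 CPM. Of 5 immune cell markers 2 had 0 counts in every library, and their summed level was 0 to 0.252 CPM, while 4 endothelial markers summed to 0.428 to 0.867 CPM. Of 4 neuronal markers 2 were over 1 CPM in all libraries, with a sum of 69.2 to 69.9 CPM in untreated and 196 to 203 CPM in TMZ-exposed Surv-GFP cells. The neuronal sum of SurvNESmut-GFP cells was 55.0 to 56.6 CPM without and 88.1 to 93.7 CPM with TMZ. In each clone the neuronal sum was thus higher after TMZ, as was PLK3, while among untreated cells it was higher in Surv-GFP and PLK3 was higher in SurvNESmut-GFP. A link between this sum and PLK3 was not tested. The neuronal markers over 1 CPM in all libraries were SYT1 and GAD1. The mean of SYT1 was 42.8 CPM without and 160 CPM with TMZ in Surv-GFP, and 33.5 and 50.0 CPM in SurvNESmut-GFP cells. That of GAD1 was 26.1 and 38.4 CPM in Surv-GFP, and 20.7 and 40.0 CPM in SurvNESmut-GFP cells. SLC17A7 reached at most 1.84 CPM. RBFOX3, a defining marker of neurons, had 1 read in 1 library and 0 in the other 7. BIRC5 itself stood at 1113 and 1152 CPM in untreated and at 1938 and 2029 CPM in TMZ-exposed Surv-GFP cells, against 407 and 414 CPM and 253 and 262 CPM in SurvNESmut-GFP cells, and gene-level counts cannot tell the transgene from the endogenous gene.

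The promoter windows of the 4 genes were read from a RefSeq table of the build GRCh38.p14 (250 bases before to 50 bases after each start, 1 window for PLK1, PLK2 and PLK3 and 3 for PLK4). The stretches below are shown because they hold short motifs known from cell cycle promoters or stress-responsive promoters, and the motifs were chosen after the windows had been read. Capitals mark the match, positions count from the start of transcription, and each motif was searched on both strands. The first pair belongs to PLK1, with the cell cycle genes homology region (CHR, TTTGAA) at -29 to -24 in chr16:23678849-23678876 on the plus strand, and a CCAAT box (CCAAT) at -73 to -69 in chr16:23678805-23678831.
PLK1 CHR: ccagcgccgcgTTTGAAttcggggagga
PLK1 CCAAT box: aatccccgcggCCAATcagtggcgcgc
In the first window of PLK4 the CHR letters lay on the reverse strand at 39 to 44, in chr4:127880920-127880942, just behind an E2F core (GGCGGGA) at 28 to 34 in chr4:127880909-127880937, so that the printed stretches overlap. This window also held an E2F core at -139 to -133 and the letters TGACGT at -5 to 1, both on the reverse strand, and the third window of PLK4 held a CCAAT box and 3 E2F cores. PLK4 and PLK2 thus both held E2F cores and the TGACGT letters.
PLK4 CHR, reverse strand: ggcgggagattTTCAAAatggga
PLK4 E2F core: ggacggcaagcGGCGGGAgattttcaaaa
The window of PLK2, on the minus strand, held the TGACGT letters of the cAMP response element at -77 to -72 in chr5:58460147-58460174. A p53 decamer, which is only a half-site, lay at -132 to -123 in chr5:58460198-58460227. The window also held an E2F core at -141 to -135, whose letters open the p53 stretch below in lower case. Another E2F core lay on the reverse strand at -43 to -37. PLK3 held an E2F core at -79 to -73 in chr1:44800287-44800315 on the plus strand.
PLK2 TGACGT: ggcataggccgTGACGTgatgtcgcgta
PLK2 p53 decamer: ggcgggacaAGACTTGCTTcccggccacgc
PLK3 E2F core: gctaggaagggGGCGGGActctcggtgac
No CHR letters were found in the windows of PLK2 and PLK3. Such matches are common, since 15.2% of the 35116 windows in the table held a CHR, 34.6% a CCAAT box, 15.4% an E2F core, 7.98% the TGACGT letters and 6.63% a p53 decamer. Counted by gene, 18.2% of 27305 genes had a CHR in some window. Among the matched members of the lists described below it was found in 5 of 9 genes for PLK1 activation, 10 of 22 partners of PLK1, 7 of 22 centriole genes, 7 of 16 DREAM and E2F genes, 3 of 12 p53 targets, 4 of 12 immediate-early genes and 2 of 8 partners of PLK2 and PLK3. In the same order of lists, an E2F core was found in 55.6%, 45.5%, 36.4%, 68.8%, 66.7%, 16.7% and 75% of genes. Among all genes 18% had it. A CCAAT box was found in 88.9%, 81.8%, 59.1%, 56.2%, 75%, 33.3% and 87.5%, beside 39.7% of all genes. For a p53 decamer it was 11.1%, 4.55%, 0%, 12.5%, 25%, 0% and 0%, beside 8.06% of all genes. A match describes the letters of the window and nothing else.

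PLK1, the mitotic kinase, was lower after TMZ in both clones and had the largest change of the tested members. In untreated Surv-GFP cells it was counted at 132 and 131 CPM, and after TMZ at 23.1 and 22.6 CPM. SurvNESmut-GFP cells had 205 and 203 CPM without TMZ and 54.5 and 48.9 CPM with it. No TMZ-exposed library reached the untreated libraries of either clone. The log2 fold change was -2.53 (SE 0.06, 5.77-fold lower) in Surv-GFP and -1.98 (SE 0.06, 3.94-fold lower) in SurvNESmut-GFP cells. In bulk RNA a smaller number of cells in G2 and mitosis and less PLK1 RNA per cell cannot be told apart. The paper reports that both clones were arrested in G2 upon TMZ. How this arrest bears on the PLK1 level was not tested.

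PLK4, the kinase of centriole duplication, was lower after TMZ as well, by a smaller factor. Its level was 33.6 and 37.1 CPM in untreated and 22.1 and 21.9 CPM in TMZ-exposed Surv-GFP cells. SurvNESmut-GFP cells showed 62.4 and 59.6 CPM without and 45.4 and 46.3 CPM with TMZ. The treated libraries lay below the untreated ones of the same clone, but the treated SurvNESmut-GFP libraries lay above the untreated Surv-GFP libraries. PLK4 was 1.60-fold lower in Surv-GFP (log2 fold change -0.68, SE 0.07) and 1.33-fold lower in SurvNESmut-GFP cells (log2 fold change -0.41, SE 0.06).

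PLK3, which is linked to DNA damage and hypoxia, had the lowest level per kilobase of the tested members before exposure and the largest increase upon it. It was counted at 5.69 and 5.68 CPM in untreated Surv-GFP cells, from 105 and 103 reads, and at 25.1 and 25.5 CPM after TMZ. In SurvNESmut-GFP cells it was at 9.22 and 7.39 CPM untreated, from 170 and 133 reads, and at 14.4 and 13.7 CPM with TMZ. Surv-GFP cells thus started lower and ended higher than SurvNESmut-GFP cells. PLK3 was 4.44-fold higher upon TMZ in Surv-GFP (log2 fold change 2.15, SE 0.11) and 1.69-fold higher in SurvNESmut-GFP cells (log2 fold change 0.76, SE 0.12). The 95% Poisson intervals of the counts were 85.9 to 127 and 84.1 to 125 reads in untreated Surv-GFP cells, wider than the gap of the lettered libraries, and 145 to 198 and 111 to 158 reads in untreated SurvNESmut-GFP cells. These intervals cover counting error only.

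PLK2, the early-response kinase, had its higher levels in Surv-GFP cells, with and without TMZ. Surv-GFP cells had 401 and 376 CPM untreated and 387 and 435 CPM after TMZ. In SurvNESmut-GFP cells the level was 195 and 194 CPM without and 276 and 288 CPM with TMZ. The ranges of untreated and TMZ-exposed Surv-GFP cells overlapped, whereas all 4 SurvNESmut-GFP libraries lay below all 4 Surv-GFP libraries, and within this clone the exposed libraries lay above the untreated ones. The log2 fold change upon TMZ was 0.08 (SE 0.06) in Surv-GFP and 0.54 (SE 0.06, 1.45-fold higher) in SurvNESmut-GFP cells. In Surv-GFP cells the value turned to -0.03 without the TMZ-exposed library b and to 0.17 without the TMZ-exposed library a, and in the latter case it passed the threshold (adjusted p = 0.0416, edgeR's quasi-likelihood test).

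PLK5 was counted with 0 to 4 reads per library, or at most 0.221 CPM. It did not pass the filter on low counts and was not tested.

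**Figure D1:**
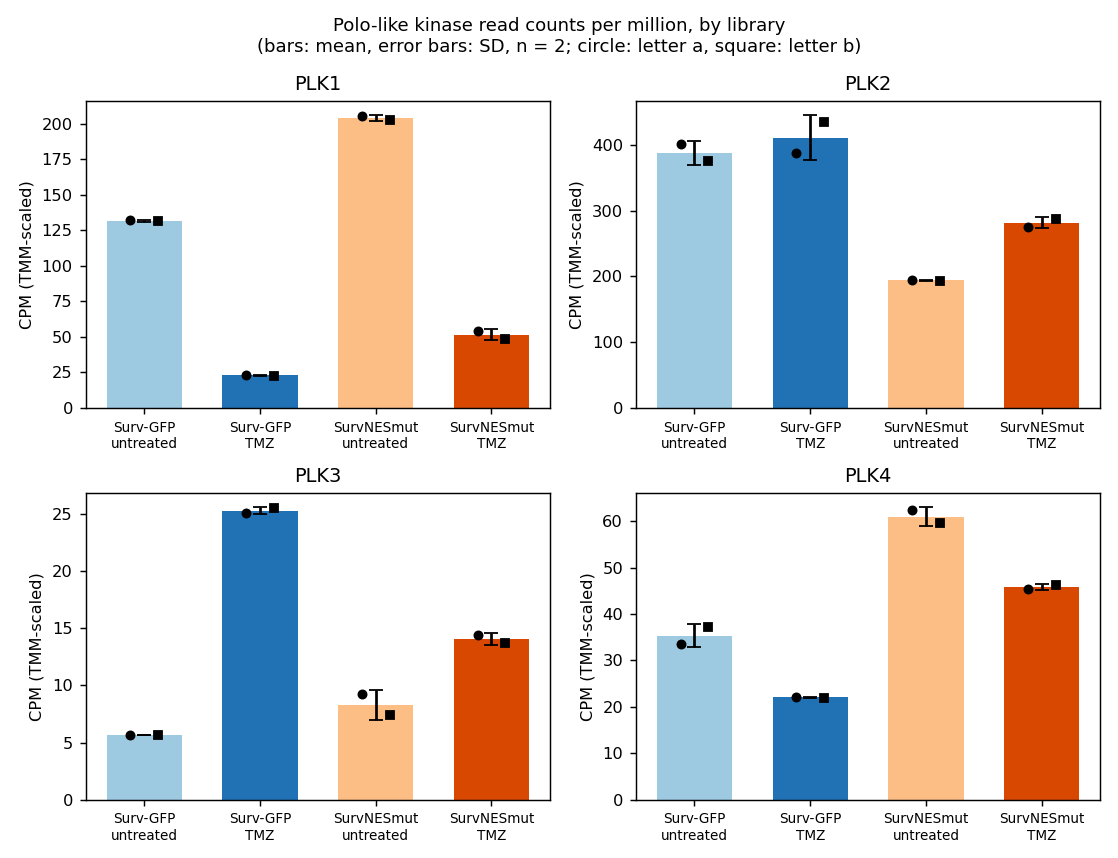
Level of each Polo-like kinase in the 4 groups, in CPM on TMM-scaled library sizes, with 1 panel per gene and a y axis of its own for each. Bars are the mean of 2 libraries, error bars the SD, the circle is library a and the square library b. PLK1 and PLK4 stand lower and PLK3 stands higher in the TMZ-exposed group of each clone, while PLK2 of Surv-GFP cells overlaps between 387 and 435 CPM after and 376 and 401 CPM before TMZ.

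In the test across all genes (edgeR's quasi-likelihood F test, Benjamini-Hochberg adjusted p of 0.05), 1 of the 4 kinases was called higher and 2 lower upon TMZ in Surv-GFP cells, where 30.1% of all 14201 genes were called higher and 28.9% lower. In SurvNESmut-GFP cells 2 kinases were called higher and 2 lower, against 18.6% and 19.1% of all genes. Since the family was chosen by these contrasts, nothing is read from these counts. The median log2 fold change of all genes was 0 in the first and 0.0035 in the second clone.

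The difference between the TMZ effects of the clones (SurvNESmut-GFP minus Surv-GFP, log2 scale) was 0.55 (SE 0.08) for PLK1, 0.45 (SE 0.08) for PLK2 and 0.27 (SE 0.10) for PLK4. For PLK3 it was -1.39 (SE 0.17), the only member of the 4 with a negative value. PLK1 and PLK4 were thus reduced less, PLK3 was raised less and PLK2 was raised more in the clone with nuclear Survivin. By the same threshold 3 kinases were called with a larger and 1 with a smaller value, beside 16.6% and 20.2% of all genes. With DESeq2 the value of PLK4 was 0.29 (adjusted p = 0.115), and it lost the threshold in 6 of the 8 fits that left out 1 library, with 0.19 (adjusted p = 0.21) without the untreated Surv-GFP library b, 0.23 (adjusted p = 0.134) without the untreated SurvNESmut-GFP library b, and 0.26 to 0.30 without either TMZ-exposed Surv-GFP library, the untreated SurvNESmut-GFP library a or the TMZ-exposed SurvNESmut-GFP library b.

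Without TMZ, 3 kinases were called higher and 1 lower in SurvNESmut-GFP cells, taken against Surv-GFP cells, where 34.7% of all genes were higher and 29.4% lower. PLK1 was 1.55-fold (log2 0.63, SE 0.05), PLK3 1.46-fold (log2 0.55, SE 0.14) and PLK4 1.72-fold (log2 0.79, SE 0.07) higher, and PLK2 was 2.00-fold lower (log2 -0.999, SE 0.06). The call of PLK3 rested on the untreated SurvNESmut-GFP library a, without which the log2 difference was 0.38 (adjusted p = 0.0501, edgeR's quasi-likelihood test). With TMZ, 2 kinases were called higher and 2 lower in SurvNESmut-GFP cells, beside 34.5% and 34.7% of all genes. PLK1 was then 2.26-fold (log2 1.18, SE 0.07) and PLK4 2.08-fold (log2 1.06, SE 0.07) higher, while PLK2 was 1.46-fold (log2 -0.55, SE 0.06) and PLK3 1.80-fold (log2 -0.85, SE 0.10) lower. The sign of the clone difference of PLK3 was therefore positive before and negative after exposure. All 5 comparisons draw on the same 4 groups and share libraries, so that their values are set side by side and are not independent of each other.

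**Figure D2:**
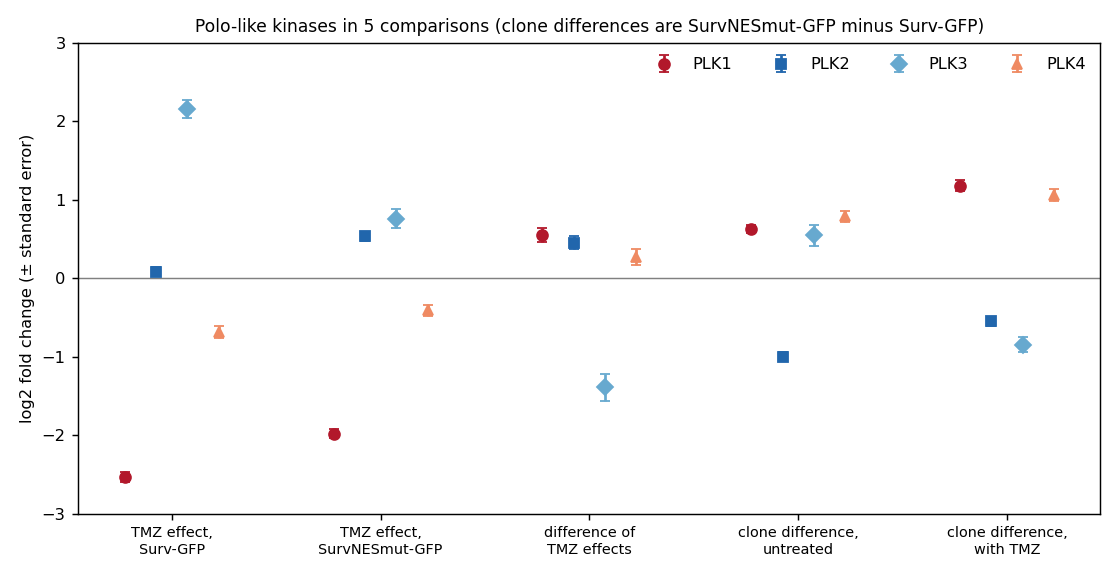
Log2 fold change of each Polo-like kinase in the 5 comparisons, with error bars of 1 standard error from the fit to all 8 libraries. PLK1 lies at -2.53 and -1.98 and PLK3 at 2.15 and 0.76 for the TMZ effect in the 2 clones, and PLK3 crosses 0 between the clone differences without (0.55) and with TMZ (-0.85).

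To compare the members with each other, the levels were divided by the length of their exons, 2405 bases for PLK1, 2960 for PLK2, 2492 for PLK3 and 3980 for PLK4 (union over coding transcripts of the GENCODE v29 annotation). In untreated Surv-GFP cells PLK2 stood at 131 CPM per kb (SD 6.10), PLK1 at 54.8 (SD 0.24), PLK4 at 8.89 (SD 0.63) and PLK3 at 2.28 (SD 0.0016, n = 2 each). Untreated SurvNESmut-GFP cells had a different order, with PLK1 at 84.8 CPM per kb (SD 0.83) ahead of PLK2 at 65.6 (SD 0.36), PLK4 at 15.3 (SD 0.51) and PLK3 at 3.33 (SD 0.52). Neighbours in these orders did not overlap between libraries.

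After TMZ, PLK2 was the highest in both clones. It reached 139 CPM per kb (SD 11.4) in Surv-GFP cells, where PLK3 followed with 10.15 (SD 0.11), PLK1 with 9.49 (SD 0.16) and PLK4 with 5.54 (SD 0.04). The order of PLK3 and PLK1 in this group depends on the length that is used, since with the longest transcript PLK1 stood at 10.25 and PLK3 at 10.15 CPM per kb. In SurvNESmut-GFP cells PLK2 was at 95.1 (SD 2.89), PLK1 at 21.5 (SD 1.65), PLK4 at 11.5 (SD 0.16) and PLK3 at 5.64 CPM per kb (SD 0.22). PLK3 thus remained the lowest tested member in the exposed SurvNESmut-GFP cells, while in exposed Surv-GFP cells PLK4 was the lowest.

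Of the summed CPM per kb of the 4 kinases, PLK1 held 27.8% (SD 0.68) in untreated and 5.80% (SD 0.50) in TMZ-exposed Surv-GFP cells, and 50.2% (SD 0.17) and 16.1% (SD 1.38) in SurvNESmut-GFP cells. The share of PLK2 was 66.5% (SD 1.17) and 84.6% (SD 1.11) in Surv-GFP and 38.8% (SD 0.29) and 71.1% (SD 1.53) in SurvNESmut-GFP cells. PLK3 accounted for 1.16% before and 6.19% after TMZ in Surv-GFP cells and for 1.97% and 4.22% in SurvNESmut-GFP cells. The share of PLK4 went from 4.51% to 3.38% in Surv-GFP cells and stood at 9.06% and 8.62% in SurvNESmut-GFP cells. A share depends on all 4 members, and the larger share of PLK2 in exposed Surv-GFP cells came with a level that overlapped the untreated one.

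**Figure D3:**
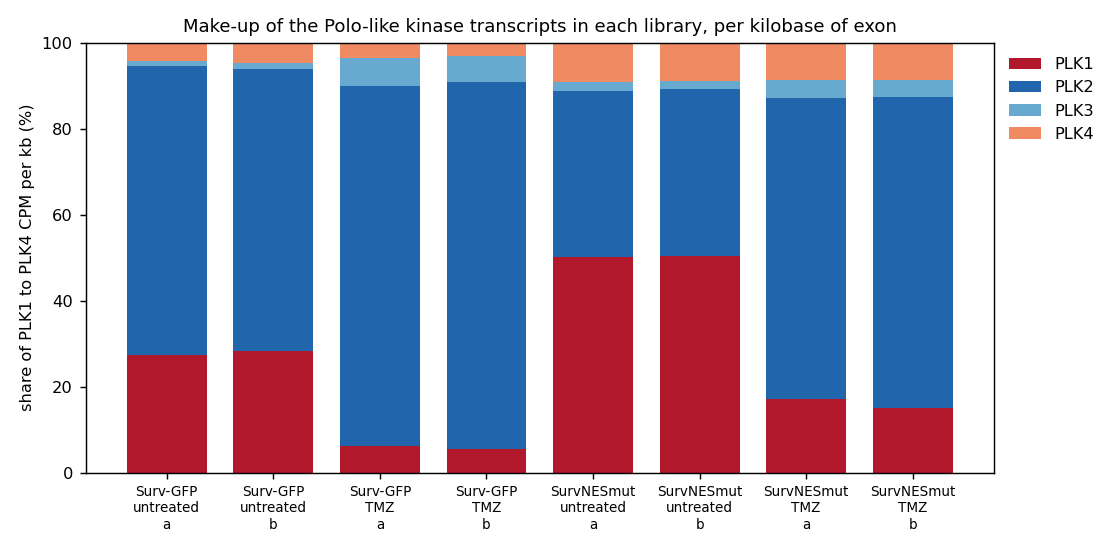
Share of each Polo-like kinase in the summed CPM per kb of exon of PLK1 to PLK4, in percent, for each of the 8 libraries. The PLK1 part is between 27.3% and 28.3% in the untreated Surv-GFP libraries, between 50.0% and 50.3% in the untreated SurvNESmut-GFP libraries, and no more than 17.04% in any exposed library.

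The contrast of mitotic and stress-linked members was taken within each library as a log2 ratio of counts (prior count 0.5), which does not depend on the scaling between libraries. PLK1 over PLK2 was -1.56 (SD 0.06) in untreated and -4.17 (SD 0.14) after exposure of Surv-GFP cells, and 0.07 (SD 0.01) and -2.45 (SD 0.15) in SurvNESmut-GFP cells. PLK4 over PLK3 was 2.63 (SD 0.10) and -0.20 (SD 0.03) in Surv-GFP and 2.88 (SD 0.18) and 1.70 (SD 0.08) in SurvNESmut-GFP cells. In counts this was 6.19 PLK4 reads per PLK3 read before and 0.872 after TMZ in Surv-GFP cells, and 7.37 before and 3.26 after it in the other clone. Both ratios were lower after exposure in each clone, without overlap of the libraries.

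The members within each class did not move as 1 unit. PLK1 over PLK4 had a log2 ratio of 1.90 (SD 0.11) and 0.05 (SD 0.01) without and with TMZ in Surv-GFP cells, and of 1.74 (SD 0.03) and 0.17 (SD 0.13) in SurvNESmut-GFP cells. The excess of PLK1 over PLK4 reads, 3.73-fold and 3.34-fold in the untreated clones, was 1.04-fold and 1.12-fold after exposure. PLK2 over PLK3 was 6.09 (SD 0.07) and 4.02 (SD 0.10) in Surv-GFP cells, and 4.55 (SD 0.22) and 4.32 (SD 0.10) in SurvNESmut-GFP cells. The last pair of values differed by little more than the spread of the libraries.

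The gene lists below were written from general knowledge with earlier results of these data known, so their counts are a description. Apart from PKMYT1, the genes named from them were called genes with the largest changes upon TMZ in one of the clones. Around PLK1, 2 lists were followed. The first holds 14 genes of PLK1 activation and mitotic entry, and of these 11 fell and 1 rose upon TMZ in Surv-GFP cells, with 2 not past the threshold and a median log2 fold change of -0.81. In SurvNESmut-GFP cells 10 fell, 1 rose and 3 did not pass, with a median of -0.57. Among all genes 28.9% fell and 30.1% rose in Surv-GFP cells, and 19.1% fell and 18.6% rose in SurvNESmut-GFP cells. AURKA, the Aurora A kinase that activates PLK1, fell in Surv-GFP (log2 fold change -1.55, SE 0.06) and in SurvNESmut-GFP cells (-1.59, SE 0.05), and its cofactor BORA fell, with log2 fold changes of -0.93 (SE 0.10) and -0.75 (SE 0.10). Cyclin B1 (CCNB1), the partner of CDK1 in mitotic entry, fell, with log2 fold changes of -1.79 (SE 0.06) and -1.53 (SE 0.06), and the phosphatase CDC25C, which activates CDK1, fell, with log2 fold changes of -1.29 (SE 0.13) and -0.95 (SE 0.11). Cyclin A2 (CCNA2) fell in Surv-GFP (log2 fold change -1.59, SE 0.06) and in SurvNESmut-GFP cells (-0.71, SE 0.05). The member that rose in both clones was PKMYT1, an inhibitory kinase of CDK1, with log2 fold changes of 0.32 (SE 0.07) and 0.29 (SE 0.06). PKMYT1 is outside the rule for named genes and was added after its values were seen. No member of this list had a log2 fold change below that of PLK1 in either clone.

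The second list holds 24 partners and substrates of PLK1 in mitosis, of which 18 fell, 1 rose and 5 did not pass in Surv-GFP cells (median log2 fold change -0.996). In SurvNESmut-GFP cells 16 fell, 2 rose and 6 did not pass (median -0.56). The shares of all genes were 28.9% lower and 30.1% higher in Surv-GFP cells, and 19.1% lower and 18.6% higher in SurvNESmut-GFP cells. KIF20A, the kinesin that brings PLK1 to the central spindle, fell in Surv-GFP (log2 fold change -3.30, SE 0.06) and in SurvNESmut-GFP cells (-2.12, SE 0.05), and it was the 1 member of this list with a lower log2 fold change than PLK1 in each clone. The checkpoint kinase BUB1, a docking site for PLK1 at kinetochores, fell, with log2 fold changes of -1.61 (SE 0.06) and -1.18 (SE 0.06). CDC20, an activator of the anaphase-promoting complex, fell, with log2 fold changes of -1.54 (SE 0.06) and -1.17 (SE 0.05). PRC1, which bundles microtubules of the central spindle, fell, with log2 fold changes of -1.05 (SE 0.06) and -0.88 (SE 0.06). The difference of the TMZ effects (SurvNESmut-GFP minus Surv-GFP) was called positive for 16 of the 24 genes and negative for 1, and for 5 and 1 of the 14 genes of PLK1 activation. It was called positive for 16.6% and negative for 20.2% of all genes.

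The 25 genes that work with PLK4 in centriole duplication moved less. In Surv-GFP cells 8 fell, 4 rose and 13 did not pass (median log2 fold change -0.08), and in SurvNESmut-GFP cells 6 fell, 3 rose and 16 did not pass (median -0.01). The shares of fallen genes were near those of all genes in the table, 28.9% in Surv-GFP and 19.1% in SurvNESmut-GFP cells. Of all genes 30.1% and 18.6% rose. CEP192, a scaffold that recruits PLK4 to centrioles, fell, with log2 fold changes of -0.64 (SE 0.06) and -0.29 (SE 0.06), and STIL, a substrate of PLK4 in the cartwheel of the new centriole, fell, with log2 fold changes of -0.49 (SE 0.06) and -0.23 (SE 0.06). CEP120, a protein of centriole elongation, rose by 0.92 (SE 0.07) and by 0.48 (SE 0.06). No gene of this list fell below PLK1. The log2 fold change of PLK4 in Surv-GFP cells, -0.68, lay below that of the most reduced listed gene, CEP192, but in SurvNESmut-GFP cells its -0.41 lay above CNTROB (-0.47), CETN3 (-0.43) and CEP97 (-0.42).

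Of 18 subunits and partners of the DREAM complex, pocket proteins and E2F factors, which control the transcription of many cell cycle genes, 10 fell, 6 rose and 2 did not pass in Surv-GFP cells (median log2 fold change -0.23). In SurvNESmut-GFP cells 4 fell, 2 rose and 12 did not pass (median -0.03). Among all genes 28.9% fell and 30.1% rose in Surv-GFP cells, and 19.1% fell and 18.6% rose in SurvNESmut-GFP cells. The counts of this list in SurvNESmut-GFP cells were near these shares. E2F7, a repressor among the E2F factors, rose by 1.44 (SE 0.06) in Surv-GFP and by 0.64 (SE 0.06) in SurvNESmut-GFP cells. The pocket protein RBL2 fell, with log2 fold changes of -0.65 (SE 0.06) and -0.39 (SE 0.06). LIN37, a subunit of DREAM, rose by 1.22 (SE 0.13) in Surv-GFP cells and had a value of 0.32 (SE 0.14) that did not pass in SurvNESmut-GFP cells.

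On the side of the stress response, 15 targets of p53 were followed. All 15 rose in Surv-GFP cells (median log2 fold change 1.88), and 13 rose and 2 did not pass in SurvNESmut-GFP cells (median 1.12). Among all genes 30.1% rose in Surv-GFP and 18.6% in SurvNESmut-GFP cells. CDKN1A, the CDK inhibitor p21, rose from 86.6 and 77.3 CPM to 908 and 975 CPM in Surv-GFP cells and from 117 and 119 CPM to 429 and 492 CPM in SurvNESmut-GFP cells, where the log2 fold changes were 3.52 (SE 0.07) and 1.96 (SE 0.07). GDF15, a secreted stress cytokine, rose by 6.53 (SE 0.12) and by 2.67 (SE 0.10), and GADD45A, which acts in growth arrest, rose by 3.82 (SE 0.07) and by 1.53 (SE 0.07). BTG2, an antiproliferative gene, rose by 2.21 (SE 0.15) and by 2.25 (SE 0.17). Against PLK3, 7 of the 15 genes had a larger log2 fold change in Surv-GFP and 11 in SurvNESmut-GFP cells. The difference of the TMZ effects was called smaller in SurvNESmut-GFP cells for 11 of the 15 and did not pass for the other 4, with a median of -0.79 beside the -1.39 of PLK3. It was called smaller for 20.2% of all genes.

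Immediate-early genes, the class in which PLK2 and PLK3 are often placed, were called in both directions, as were all genes of the table. Of 16 such genes 7 rose, 4 fell and 5 did not pass in Surv-GFP cells (median log2 fold change 0.13), and 6 rose, 4 fell and 6 did not pass in SurvNESmut-GFP cells (median -0.10). Of all genes 30.1% rose and 28.9% fell in Surv-GFP cells, and 18.6% and 19.1% in the other clone. The stress-induced factor ATF3 rose by 3.64 (SE 0.10) and by 2.38 (SE 0.09), and KLF4 rose by 2.70 (SE 0.12) and by 1.34 (SE 0.10). FOS fell by 1.92 (SE 0.28) in Surv-GFP cells and had a value of -0.20 (SE 0.30) that did not pass in SurvNESmut-GFP cells. ATF3 and KLF4 were the 2 members of the list with a larger log2 fold change than PLK3 in Surv-GFP cells.

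Among 13 tested partners and substrates of PLK2 and PLK3, 5 rose, 4 fell and 4 did not pass in Surv-GFP cells (median log2 fold change 0.04), and 3 rose, 3 fell and 7 did not pass in SurvNESmut-GFP cells (median 0.03). These shares were near those of all genes, 30.1% higher and 28.9% lower in Surv-GFP and 18.6% and 19.1% in SurvNESmut-GFP cells. HIF1A, the hypoxia factor phosphorylated by PLK3, rose by 0.58 (SE 0.06) in Surv-GFP and fell by 0.69 (SE 0.06) in SurvNESmut-GFP cells. The checkpoint kinase CHEK2 fell, with log2 fold changes of -0.51 (SE 0.09) and -0.26 (SE 0.08), the latter not past the threshold in 4 of the alternative fits.

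**Figure D4:**
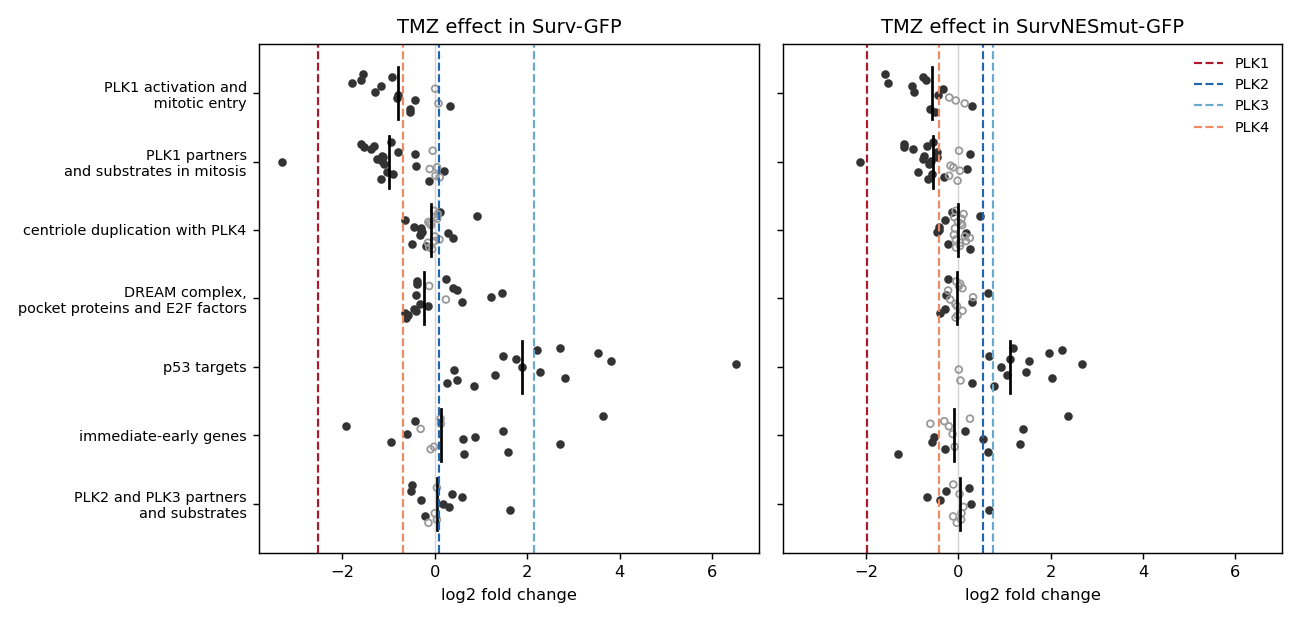
Log2 fold change upon TMZ of the genes of 7 lists in Surv-GFP (left) and SurvNESmut-GFP cells (right). Each point is a gene, filled where it passed the adjusted p of 0.05 and open where it did not, black bars are list medians, and dashed lines mark PLK1 to PLK4. The PLK1 line (-2.53 and -1.98) has 1 listed gene to its left in each panel, and the PLK3 line (2.15 and 0.76) has 7 and 11 of the 15 p53 targets to its right.

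The untreated clones differed in the same lists. Without TMZ, 11 of the 14 genes of PLK1 activation were higher in SurvNESmut-GFP cells and 3 did not pass, and of the 24 PLK1 partners 18 were higher and 2 lower (median log2 differences 0.56 and 0.51, beside 0.03 for all genes). PLK1 itself, at 0.63, lay close to these medians. Of the 25 centriole genes 14 were higher and 3 lower (median 0.17), below the 0.79 of PLK4. Without TMZ 34.7% of all genes were higher and 29.4% lower in SurvNESmut-GFP cells. With TMZ the clone differences of the PLK1 lists had medians of 0.77 and 0.90, and 9 of the 15 p53 targets were lower and 3 higher in SurvNESmut-GFP cells (median -0.32). The shares of all genes with TMZ were 34.7% lower and 34.5% higher.

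For each member the genes with the most similar profile were sought, by the root mean square difference of centred log2 CPM over the 8 libraries, and such profiles are a description of these libraries. KIF20A was the most like PLK1 (0.289), followed by the helicase gene PIF1 (0.295), the antisense RNA H1FX-AS1 (0.313) and CCNB1 (0.345). This measure grows with the size of the changes, so that its values are not compared between members. Nearest to PLK4 were PRDX1, a peroxiredoxin (0.0404), MYO10, an unconventional myosin (0.0494), AK4, an adenylate kinase (0.0629) and SEMA4B, a semaphorin (0.0644). For PLK2 the nearest were VCAN, the proteoglycan versican (0.0817), CSAD (0.0955), SYNGR1 (0.0973) and the pseudogene MIPEPP3 (0.101), whose reads may be shared with its parent gene. For PLK3 they were ZNF28 (0.105), LARP6 (0.123), XBP1, a factor of the unfolded protein response (0.138) and PLD6 (0.161). XBP1 had log2 fold changes upon TMZ of 2.04 and 0.76 in the same order of the clones, beside 2.15 and 0.76 for PLK3.

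Exons of PLK1 share 156 bases (6.49% of its exon length) with the antisense gene AC008870.3 and 42 bases (1.75%) with ERN2, and those of PLK3 share 78 bases (3.13%) with TCTEX1D4. All of these genes lie on the opposite strand, and without known strandedness of the libraries, reads from these stretches cannot be told apart. PLK2 and PLK4 share no exon bases with another gene of the annotation.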

How the data were processed

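Illumina sequencing was done on RNA of the LN229 clones D6 and L2 with and without TMZ. Libraries were assigned to groups by their sample labels, and table columns were matched by the code in the sample title. The deposited table gives raw read counts by gene symbol, which the authors did not normalize. Their processing notes name STAR 2.5.0b, Cufflinks 2.2.1 and edgeR. The counting program, genome build and strandedness are not stated in the sources used here. The 5 comparison tables of the authors (log2 fold change, log2 CPM, F score, p-value and FDR) were not used. In each library 11.2% to 14.3% of the reads were in a row for no feature and 1.19% to 1.28% in a row for ambiguous reads, and both rows were left out.

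The count analysis used R 4.3.3, edgeR 4.0.16 and limma 3.58.1. All 8 libraries entered 1 model of 4 group means, with TMM normalization, the low-count filter by group (14201 genes left), the legacy quasi-likelihood F test, and Benjamini-Hochberg adjustment at 0.05. The model was run on simulated counts in which 200 of 14201 genes were changed by a log2 fold of 1. For the TMZ effect in Surv-GFP it recovered 177 of them, with 15 false calls. For the difference of TMZ effects it recovered 166, with 16 false calls. The members, the lists and the rule for named genes were chosen with earlier results of these data known. The genes named are PLK1 to PLK5, BIRC5, CDKN1A, per list up to 4 called genes with the largest change in Surv-GFP and up to 2 more in SurvNESmut-GFP cells, and the 4 genes most alike to each member. Not every gene selected by this rule is reported here. The alternatives were DESeq2 1.42.0, its size factors or library size alone, no filter or 1 CPM in 2 libraries, the edgeR 4 quasi-likelihood method, a replicate block, only the libraries compared, a prior count of 2 in the ratios, and each library left out. Depth was 15826923 to 18861603 counts, and Poisson intervals cover counting error only.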

Additional observations from a re-analysis of the deposited data

Results flagged for a closer look

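Each gene below had a TMZ effect that differed between the clones by a test of the difference itself (edgeR, adjusted p of 0.05), and all values are SurvNESmut-GFP minus Surv-GFP on the log2 scale. Among the Polo-like kinases the difference was 0.55 for PLK1, 0.45 for PLK2, -1.39 for PLK3 and 0.27 for PLK4. The call of PLK4 was lost in 7 of the alternative fits, DESeq2 among them. The kinases were chosen by these contrasts, so that for them the test rests on the values that chose them and the differences are a description. It was -1.48 for BIRC5 and -1.56 for CDKN1A.

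In the lists around PLK1 it was 0.27 for CCNB1, 0.88 for CCNA2, 1.18 for KIF20A, 0.43 for BUB1, 0.38 for CDC20, 0.40 for CDCA8 and 0.48 for GTSE1, all towards a smaller loss in SurvNESmut-GFP cells. Centriole genes had -0.44 for CEP120, 0.35 for CEP192 and 0.26 for STIL. E2F and DREAM genes had -0.80 for E2F7, -0.90 for LIN37, 0.26 for RBL2, 0.56 for TFDP2 and -0.30 for LIN54.

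For p53 targets the difference was -3.85 for GDF15, -2.28 for GADD45A, -0.79 for SESN2 and -0.80 for RRM2B, all towards a smaller rise. Immediate-early genes had -1.26 (SE 0.15) for ATF3, -1.37 (SE 0.17) for KLF4 and -0.93 (SE 0.26) for MYC. The SE was larger for FOS (1.72, SE 0.41), FOSB (1.70, SE 0.34) and NR4A1 (-1.93, SE 0.35). Partners of PLK2 and PLK3 had -0.96 for RASGRF1, -1.27 for HIF1A and 0.39 for CCNE1. The call was lost in 12 of the alternative fits for RASGRF1 and in 1 to 9 of them for AK4, CCNB1, CCNE1, CDCA8, CSAD, FOS, LIN54, MYC, MYO10, PRDX1, RBL2 and STIL.

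Of the genes with profiles like those of the members, PIF1 had a difference of 0.78. Those alike to PLK2 had 0.67 for VCAN, 0.40 for CSAD and 0.46 for SYNGR1, those alike to PLK3 -1.07 for ZNF28, -1.32 for LARP6, -1.29 for XBP1 and -0.95 for PLD6, and those alike to PLK4 0.20 for PRDX1, 0.23 for MYO10, 0.35 for AK4 and 0.43 for SEMA4B. These genes were chosen for their likeness to a member over all 8 libraries, so their differences follow from that choice.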

How the results depend on the processing

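Over the comparisons and alternative fits, 79 of 79 counts of called genes stayed within 1.5 times. Of the values of the 4 kinases, each taken per comparison and fit, 307 kept their side of the threshold, 8 lost their call and 1 gained it. For PLK4 the difference of the TMZ effects was 0.29 with DESeq2 (adjusted p = 0.115), and 0.1927 to 0.3383 with 1 library left out. The TMZ effect of PLK2 in Surv-GFP cells was -0.0347 to 0.1665, and the untreated clone difference of PLK3 was 0.3795 to 0.6988, with 1 library left out. The cause of these shifts was not tested.

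The correlation between groups of the deviations of letters a and b was -0.0447 to 0.0752 and over 0.1 in 0 of 6 group pairs. No letter effect shared by the groups was seen across all genes. These values cannot show whether the samples were paired by design, since the meaning of the letters is not stated. With a replicate block the difference of the TMZ effects of PLK4 was 0.27 (adjusted p = 0.0498) and no call of a kinase changed. A fit without 1 library keeps a lone library in its group, which is assumed to vary like the others. Among other named genes, counted in the same way, 106 values lost their call, 24 gained it and 4373 kept their side. Of the list counts and medians 545 were kept and 8 moved, and of the levels and ratios 106 were kept and 6 moved by more than the SD. PLK3, with 103 reads in 1 library, was the tested member most limited by depth.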
